A study of Mus musculus with 8 samples.

Results

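The genes described here are the G protein-coupled receptors and related membrane proteins that the array names Gpr followed directly by a number, a name given to receptors found by sequence before their ligands were known. They were chosen by name alone: of 55681 non-control probes, 118 carry such a name, and these 118 probes stand for 96 of the 34844 gene names on the array. Of the 96 genes, 90 have nothing after the number and 6 have a letter or suffix, as in Gpr31c or Gpr137b-ps. In the current RefSeq table all 96 were found and 23 go by another symbol, among them Gpr77 (C5ar2), Gpr44 (Ptgdr2), Gpr30 (Gper1), Gpr56 (Adgrg1), Gpr64 (Adgrg2), Gpr124 (Adgra2) and Gpr133 (Adgrd1). The array's names are kept below.

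The 4 groups, each with 2 samples on 1-colour arrays, all derive from mouse marrow. LPS macrophages and IL-4 macrophages were differentiated over 7 days in the macrophage growth factor M-CSF and then received lipopolysaccharide or interleukin-4 for 24 hours; colony cells were marrow kept for 7 days on an endothelial cell layer in a medium for haematopoietic stem cells; control macrophages were M-CSF cultures kept in control medium. All groups came from B6.Cg mice (Jackson, /J) with the transgene Tg(CAG-DsRed*MST)1Nagy, which drives a red fluorescent protein from a promoter active in most cells. The labels do not give the animals' age. Nothing states that both samples of a group were separate animals or cultures, so p-values measure only the spread between these samples, which may be technical. Colony cells and macrophages differ in substrate and medium together, and the labels give neither the source of the endothelial layer nor its removal before extraction.

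G protein-coupled receptors cross the membrane 7 times and pass a signal outside the cell to a G protein inside it. Macrophages use them to sense lipids, metabolites, acid, complement fragments and other cells. Many Gpr-named receptors of leukocytes respond to lipids, such as fatty acids (Gpr84), oxysterols (Gpr183) or lysophosphatidylserine (Gpr34). Others are adhesion receptors with long extracellular ends, and some proteins that carry the name work inside the cell.

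A level is the log2 spot signal minus the array's 75th percentile, so 0 marks a bright signal. A probe's brightness also depends on its sequence, so levels are compared between groups and not between genes. A gene was tested if 1 of its probes stood well above background in both samples of any group; near or below the detection floor, whose median over the arrays was -6.15, probes seldom did. In all, 66 of the 96 members (68.75%) passed, against 76.1% of all gene names, leaving 26528 genes tested; 43 members were above background on all 8 arrays and 21 on none. On both arrays of a group, 55 members (57.3%) were above background in LPS macrophages, 49 (51.0%) in IL-4 macrophages, 55 (57.3%) in colony cells and 51 (53.1%) in control macrophages, against 68.9%, 67.6%, 70.4% and 67.0% of all gene names. A gene was called at an adjusted p under 0.05, over all genes tested, in limma's moderated test.

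Of each array's 59305 spots, 62.4% to 72.2% were well above background, and none was saturated. The highest share was that of LPS replicate 2, which also had 105 uneven spots, against at most 5 on any other array. Some dim members stood higher on that array than on LPS replicate 1: Gpr61 read -2.99 and -5.44 on LPS replicates 2 and 1, and Gpr135 read -4.30 and -8.20. All 8 macrophage markers on the array were above background in every group, but their summed signal was 14214% to 14460% of the 75th-percentile signal in colony cells, against 203339% to 204453% in control macrophages. For 8 pan-leukocyte genes the sums were 6897% to 6939% in colony cells and 49923% to 50217% in control macrophages. In LPS macrophages the macrophage sums were 159705% to 184325% and the pan-leukocyte sums 92019% to 102165%. The 6 mesothelial markers summed to 36642% to 38114% in colony cells and 3.88% to 4.35% in control macrophages, where 5 of the 6 were not well above background. Stromal markers (7 genes) gave 24481% to 25007% in colony cells and 53.1% to 65.4% in control macrophages, and mast cell markers (6 genes) 549% to 555% and 56.9% to 73.7%. LPS macrophages stood at 18.7% to 22.4% for mesothelial, 146% to 165% for stromal and 25.8% to 55.9% for mast cell markers. Of 7 endothelial markers on the array, the 5 tested summed to 2237% to 2346% in LPS macrophages, 6106% to 6251% in IL-4 macrophages, 1326% to 1423% in colony cells and 3342% to 3818% in control macrophages. Of all 7, 4 were above background in colony cells, and Cdh5, Tie1 and Emcn were not. In control macrophages 4 were too, and Tek, Tie1 and Emcn were not.

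Upstream sequence is shown for Gpr31c, Gpr84 and Gpr18, which had the largest rises with LPS among the lipid receptors, and for Gpr183, the neighbour of Gpr18, which fell. Each line is the 250 bases before the gene's RefSeq start, 5′ to 3′ on the gene's strand, on build GRCm38.p6, with matches to a searched motif in capitals. The RefSeq gene matched by transcript to the Gpr31c name is Gpr31b. A further Gpr31c probe, at chr17:7520008-7520066 (mm9), lies apart from the others, so the Gpr31b window may not stand for it.
Gpr84 (chr15:103310439-103310688, minus strand): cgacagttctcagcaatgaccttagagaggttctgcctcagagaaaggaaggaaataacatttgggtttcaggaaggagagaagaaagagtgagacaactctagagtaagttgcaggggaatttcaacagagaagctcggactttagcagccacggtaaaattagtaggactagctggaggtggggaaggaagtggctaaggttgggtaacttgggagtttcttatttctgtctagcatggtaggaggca
Gpr31b (chr17:13052281-13052530, minus strand): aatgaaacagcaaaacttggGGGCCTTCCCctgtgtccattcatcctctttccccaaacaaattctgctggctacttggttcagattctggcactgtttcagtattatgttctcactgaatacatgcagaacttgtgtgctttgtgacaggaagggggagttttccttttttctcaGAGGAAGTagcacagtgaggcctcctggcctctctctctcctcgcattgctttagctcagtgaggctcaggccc
Gpr18 (chr14:121915889-121916138, minus strand): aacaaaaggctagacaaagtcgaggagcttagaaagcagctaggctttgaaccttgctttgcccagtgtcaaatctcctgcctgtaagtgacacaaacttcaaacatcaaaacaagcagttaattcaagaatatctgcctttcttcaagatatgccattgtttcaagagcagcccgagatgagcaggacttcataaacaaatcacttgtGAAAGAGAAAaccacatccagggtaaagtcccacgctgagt
Gpr183 (chr14:121965194-121965443, minus strand): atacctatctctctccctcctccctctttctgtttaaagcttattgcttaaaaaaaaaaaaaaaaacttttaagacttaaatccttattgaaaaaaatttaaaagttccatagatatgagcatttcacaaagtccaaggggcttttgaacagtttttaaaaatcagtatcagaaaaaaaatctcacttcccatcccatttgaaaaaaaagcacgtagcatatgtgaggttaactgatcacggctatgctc
The capitals in the Gpr31b window are a kB match (GGG, 2 bases of any kind, then TTTCC or TTCCC) that begins 230 bases before the start and an ETS match (GAGGAAGT) 74 bases before it. Those in the Gpr18 window are an ISRE match (GAAA, 2 bases of any kind, GAAA) 41 bases before the start. The Gpr84 and Gpr183 windows held none of the motifs searched, on either strand: these 3, AP-1 (TGANTCA), CRE (TGACGTCA) and E-box (CACGTG). Of 32851 windows of this length, 2.82% held kB, 2.44% ETS, 6.75% AP-1, 2.98% ISRE, 1.55% CRE and 6.02% E-box. Those shares are per window. Windows were found for 47 of the 66 tested members, 60 windows in all. The counts below are per member, with a match in any of its windows, so the 2 units differ. Among 16 members called higher with LPS, 1 had kB, 3 ETS, 1 AP-1 and 1 ISRE; among 15 called lower, 1 had AP-1 and 1 ISRE and none the other 4 motifs; among 16 not called, 1 had ETS, 3 AP-1, 1 ISRE and 1 CRE. A match of letters describes the window and is not a binding site.

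In LPS against control macrophages, 44 of 66 members were called, 21 higher and 23 lower, and 15 of those higher and 20 of those lower by at least 2-fold. Over all genes 54.7% were called, 28.9% higher and 25.8% lower, 12% at least 2-fold higher and 10.2% at least 2-fold lower. The members' median difference was 0.09 on the log2 scale and that of all genes 0.07. In IL-4 against control macrophages 14 members were called, 3 higher and 11 lower, where 19% of all genes were (9.86% higher, 9.17% lower). In colony cells against control macrophages 52 were called, 16 higher and 36 lower, where 71.4% of all genes were (24.7% higher, 46.7% lower); 12 were at least 2-fold higher and 26 at least 2-fold lower, where 16.4% and 21.9% of all genes were, and the median difference was -0.72 over the members and -0.35 over all genes. These 2-fold counts use fitted differences; with members below background in 1 group taken at their bound, and those below it in both groups left out, they are 14 higher and 19 lower with LPS and 12 higher and 25 lower in colony cells. With the normexp background correction, which is an alternative to the scanner's own, the LPS split was 13 higher and 28 lower. Over all genes 55.4% were called with LPS there. Without LPS replicate 2 more members were again called lower than higher, and fewer of all genes were called. Some members counted as changed at least 2-fold passed the filter only through their higher group, so those calls are not independent of the filter. They include Gpr39, Gpr64, Gpr133 and Gpr153 through the colony arrays and Gpr52 and Gpr55 through the LPS arrays. Gpr82 and Gpr110, among those lower, passed only through the control arrays. The 3 comparisons share the 2 control arrays. In bulk RNA, fewer cells of a type and less RNA per cell cannot be told apart. The colony and LPS values stand beside the macrophage, leukocyte, mesothelial, stromal, mast cell and endothelial sums given above, and the part of those cells in the members' levels was not tested.

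**Figure D1:**
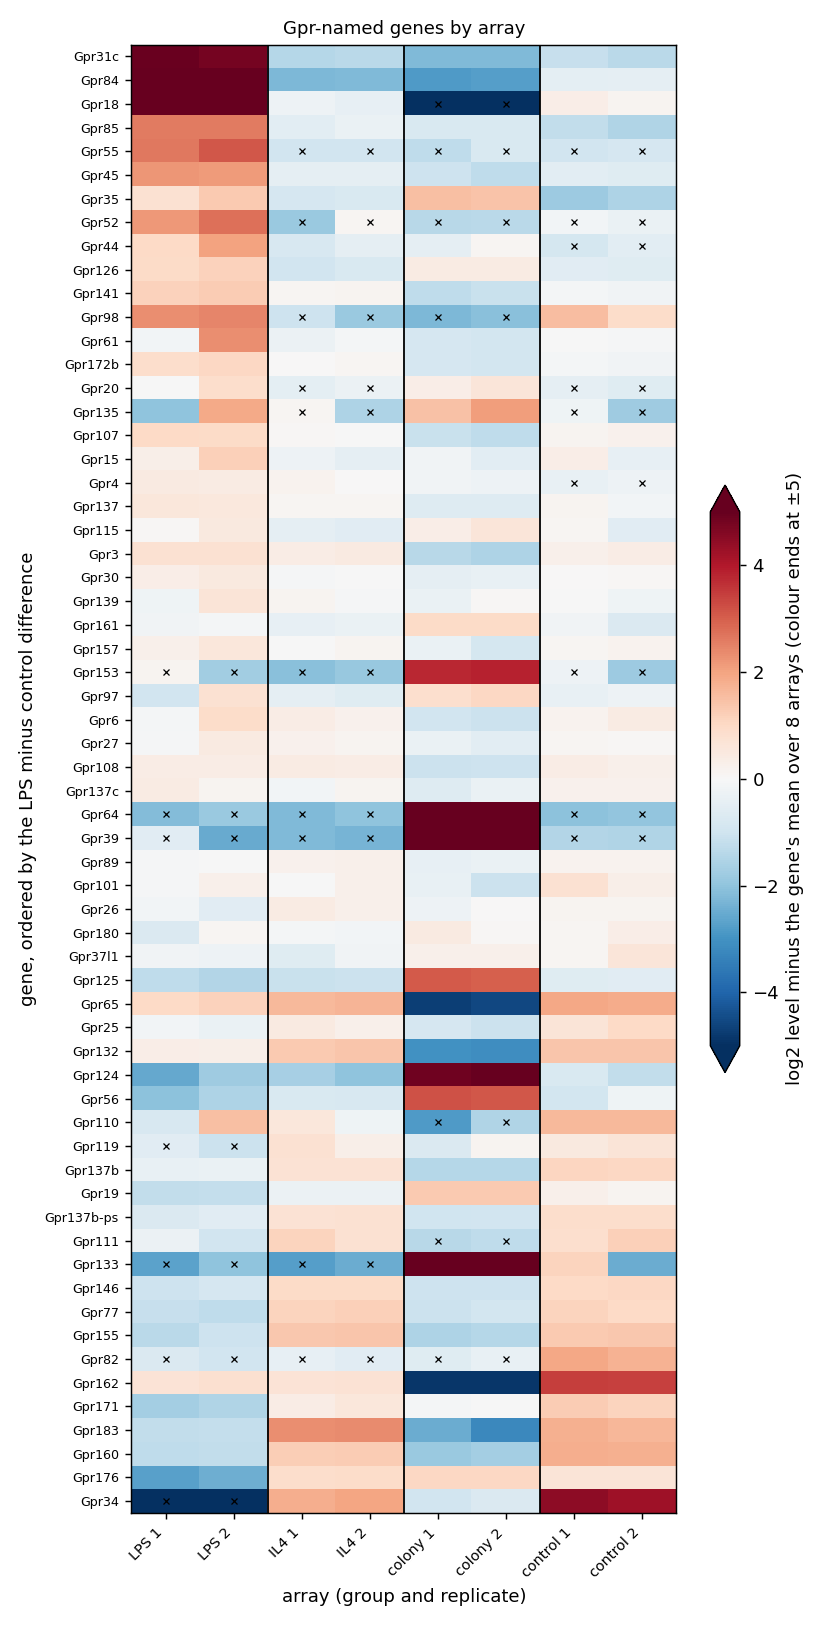
Heat map of 62 tested Gpr-named genes (rows, ordered by the LPS minus control difference) on the 8 arrays (columns). Colour is the log2 level minus the gene's mean over 8 arrays, and a cross marks a group in which the gene was above background on neither array; Gpr31c, Gpr84 and Gpr18 stand out in LPS macrophages and Gpr64, Gpr39 and Gpr133 in colony cells.

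**Figure D2:**
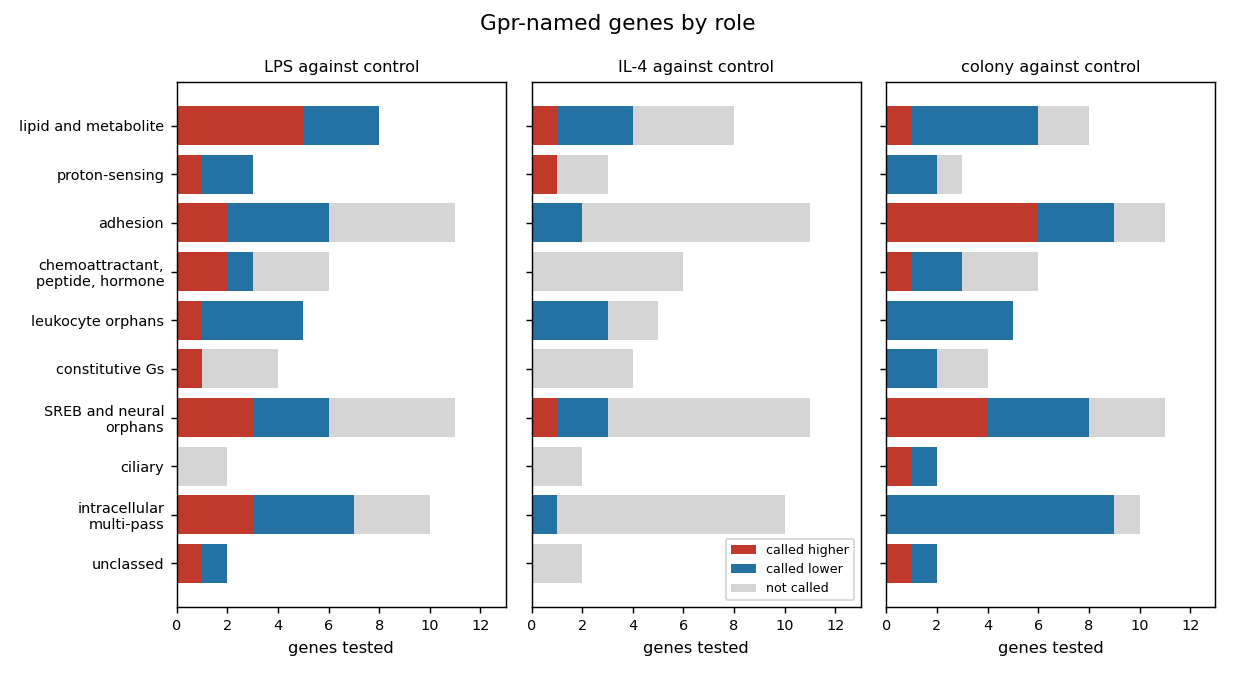
Counts of tested genes by role in 3 comparisons; bars show genes called higher, called lower and not called. All 8 lipid and metabolite receptors were called with LPS, 5 higher and 3 lower, and 6 of 11 adhesion receptors were called higher in colony cells. Over all genes 54.7% were called with LPS and 24.7% were called higher in colony cells.

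Among lipid and metabolite receptors, LPS macrophages had far more RNA of Gpr84, Gpr31c and Gpr18, more of Gpr35 and Gpr55, and less of Gpr34, Gpr183 and Gpr119. All 8 tested of the 10 on the array were called, and 5 rose and 3 fell, where 28.9% and 25.8% of all genes did. Gpr55 passed the filter only through the LPS arrays, so its call is not independent of the filter. Their median difference was 3.26, or 2.20 with genes below background in 1 group set at their bound, and that of all genes 0.07.

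Gpr84, a receptor for medium-chain fatty acids, stood at 7.12 and 7.30 in LPS macrophages, -0.52 and -0.48 in IL-4 macrophages, -1.10 and -1.04 in colony cells and 1.22 and 1.29 in control macrophages. Its probe lies at chr15:103138670-103138729 on build mm9, minus strand. No array of one group overlapped those of another. LPS macrophages were 62.0-fold above control macrophages (log2 difference 5.95 ± 0.08 SE, n = 2 arrays each, limma adjusted p = 1.33e-06), and IL-4 macrophages fell by 1.75 ± 0.08 on the log2 scale (adjusted p = 0.000233). Colony cells fell by 2.32 ± 0.08. Between LPS and IL-4 macrophages the difference was 7.71 ± 0.08, a 209-fold higher level with LPS.

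Gpr31c is read by 3 probes. The representative one stood at 3.76 and 3.62 in LPS macrophages, -2.61 and -2.54 in IL-4 macrophages, -3.40 and -3.37 in colony cells and -2.34 and -2.51 in control macrophages, so that only the LPS arrays were above 0. LPS macrophages exceeded control macrophages by 6.12 ± 0.09 (69.4-fold, adjusted p = 1.40e-06), and the 3 probes gave 4.56 to 8.05. Of the 3 probes, 2 are placed at chr17:13537388-13537511 and the third at chr17:7520008-7520066 (mm9), so near-identical copies of this receptor cannot be told apart here. Human GPR31 responds to a hydroxylated arachidonic acid.

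Gpr18, a receptor reported to bind N-arachidonylglycine and a resolvin, stood at 2.23 and 2.25 in LPS macrophages, -3.34 and -3.52 in IL-4 macrophages, -8.45 and -8.28 in colony cells and -2.77 and -2.95 in control macrophages. The probe (chr14:122311608-122311667, mm9, minus strand) was well above background in every group except colony cells. With LPS it rose by 5.10 ± 0.11 (34.2-fold, adjusted p = 2.89e-06). In colony cells it was at least 11.0-fold lower than in control macrophages. Its IL-4 difference of -0.57 ± 0.11 was called (adjusted p = 0.0190), and the call was lost in several alternatives, leaving out IL-4 replicate 1 among them (-0.66).

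Gpr183 is the next protein-coding gene to Gpr18 on chromosome 14 and encodes the receptor by which leukocytes follow oxysterols. Its levels were -2.61 and -2.59 in LPS macrophages, 0.95 and 1.00 in IL-4 macrophages, -3.88 and -4.62 in colony cells and 0.41 and 0.29 in control macrophages. The neighbours thus moved in opposite directions with LPS: Gpr183 fell by 2.95 ± 0.23 (adjusted p = 0.000209) while Gpr18 rose. In colony cells Gpr183 fell by 4.60 ± 0.23 (adjusted p = 1.89e-05), and with IL-4 the difference of 0.63 ± 0.23 was not called (adjusted p = 0.130).

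All 3 tested enzymes around the Gpr183 ligand were called with LPS and in colony cells, where 54.7% and 71.4% of all genes were. Ch25h, which hydroxylates cholesterol to the ligand's precursor, stood at 3.28 and 3.34 in LPS macrophages, -5.02 and -5.16 in IL-4 macrophages, 2.88 and 2.99 in colony cells and -3.46 and -3.93 in control macrophages. It rose by 7.00 ± 0.16 with LPS and by 6.63 ± 0.16 in colony cells, and fell by 1.40 ± 0.16 with IL-4. So Ch25h was high in both groups in which Gpr183 was low. Cyp27a1, another sterol hydroxylase, fell by 5.83 ± 0.23 with LPS and fell by 6.96 ± 0.23 in colony cells. Hsd3b7, which takes part in breaking the ligand down, fell by 0.53 ± 0.09 and 0.64 ± 0.09 in the same comparisons. Cyp7b1, the fourth gene of this list, did not pass the filter.

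Gpr34, a lysophosphatidylserine receptor of macrophages and microglia, was at -7.74 and -7.90 in LPS macrophages, below background on both arrays. It stood at -0.58 and -0.43 in IL-4 macrophages, -3.37 and -3.13 in colony cells and 2.05 and 1.82 in control macrophages. The 4 groups did not overlap. LPS macrophages were at least 269-fold lower than control macrophages (adjusted p = 1.33e-06), IL-4 macrophages fell by 2.44 ± 0.13 and colony cells by 5.19 ± 0.13. Pla1a, a phospholipase that makes lysophosphatidylserine, stood at -1.28 and -1.38 in LPS macrophages and was below background in control macrophages, at least 26.0-fold lower there. Abhd12, which breaks lysophosphatidylserine down, fell by 1.27 ± 0.11 with LPS and by 3.35 ± 0.11 in colony cells. Abhd16a, a phosphatidylserine lipase that also makes lysophosphatidylserine, fell by 0.64 ± 0.07 with LPS and by 0.73 ± 0.07 in colony cells.

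Gpr82, an orphan receptor and the next protein-coding gene to Gpr34 on the X chromosome, was above background only in control macrophages, at -4.31 and -4.51. It was lower by at least 3.31-fold with LPS, at least 3.21-fold with IL-4 and at least 3.76-fold in colony cells. Both neighbours were thus called lower in all 3 comparisons, as were 4 other members: Gpr137b, Gpr160, Gpr162 and Gpr171. Gpr82 passed the filter only through the control arrays, so its calls are not independent of the filter. With IL-4, Gpr137b was called lower by 1 of its 4 probes. The share of all genes called lower in all 3 was not computed. Taken singly, 25.8% were called lower with LPS, 9.17% with IL-4 and 46.7% in colony cells.

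**Figure D3:**
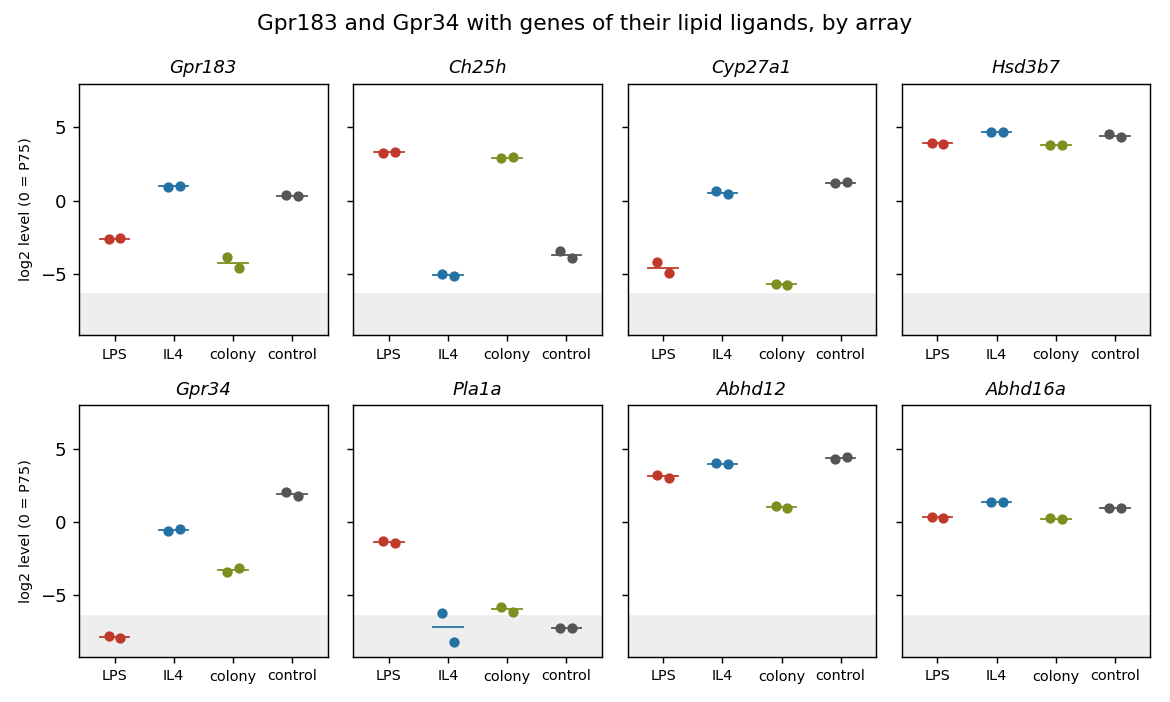
Log2 level (0 = the array's 75th percentile, P75) of Gpr183, Gpr34 and genes of their lipid ligands on each array; points are the 2 arrays of a group, bars their mean, and grey marks levels below the detection floor of every array. Ch25h is high and Gpr183 low in LPS macrophages and colony cells, and Gpr34 lies in the grey zone in LPS macrophages only.

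Gpr35, a receptor linked to kynurenic acid and other metabolites, stood at -1.66 and -1.13 in LPS macrophages, -3.27 and -3.20 in IL-4 macrophages, -0.95 and -1.03 in colony cells and -4.27 and -3.99 in control macrophages. It was 1 of 2 members, with Gpr85, called higher in all 3 comparisons, a share not computed over all genes. It rose by 2.73 ± 0.19 with LPS (1.17 to 2.95 over its 3 probes) and 3.14 ± 0.19 in colony cells (1.50 to 3.14). The IL-4 rise of 0.90 ± 0.19 (adjusted p = 0.0278) was called by 2 of its 3 probes, whose differences spanned 0.02 to 1.60, and lost its call with normexp (0.24) and on leaving out any 1 array of the IL-4, colony or control group (0.76 to 1.03).

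Gpr55, a receptor for lysophosphatidylinositol, was above background in LPS macrophages only, at -4.60 and -4.12, and at least 3.19-fold lower in control macrophages. Gpr119, a receptor for oleoylethanolamide best known from the pancreas and gut, was dim throughout and at least 1.68-fold lower with LPS. With normexp the Gpr55 call was lost (log2 difference 0.23).

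**Figure D4:**
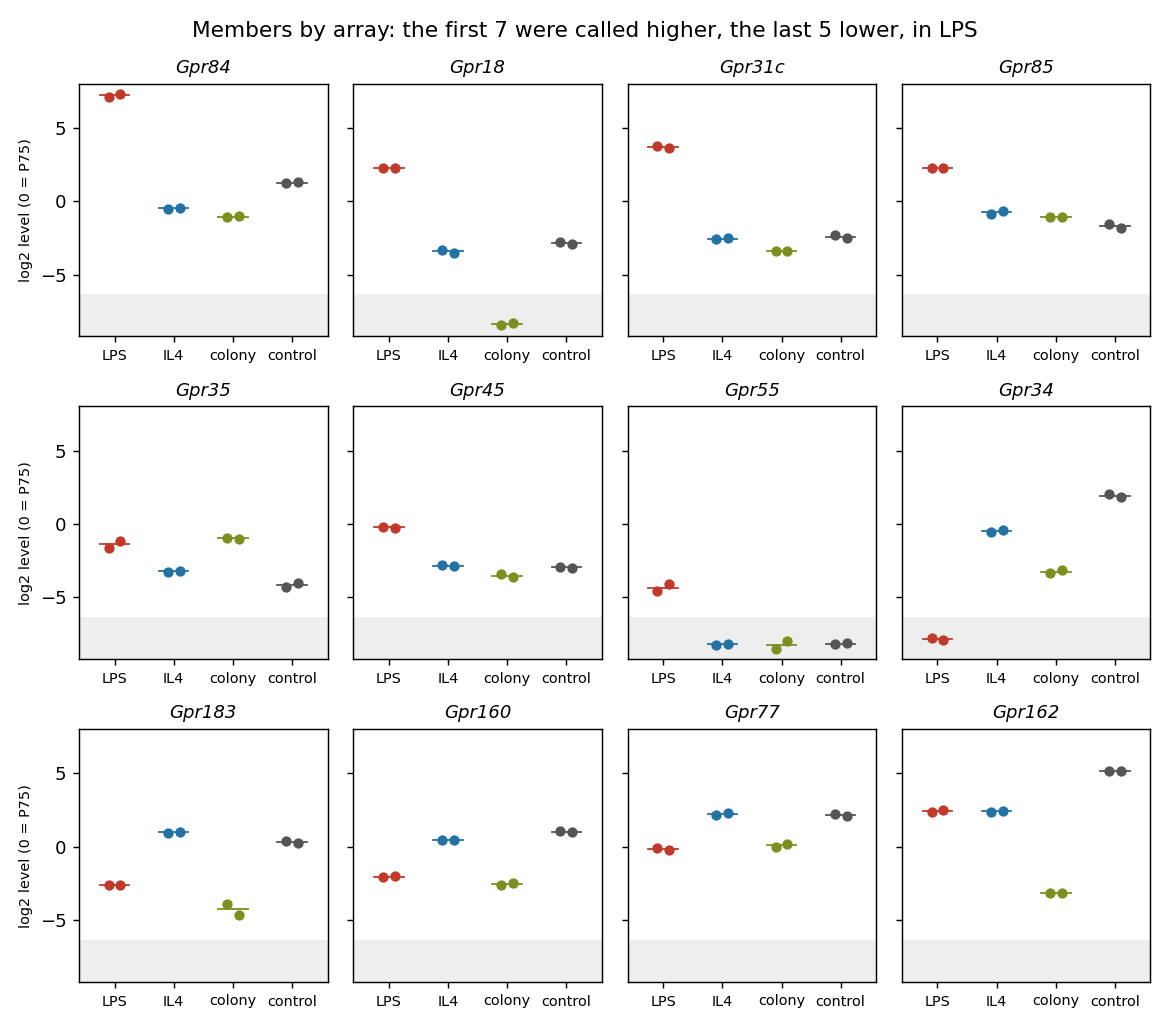
Log2 level (0 = P75) of 12 members on each array; points are the 2 arrays of a group, bars their mean, and grey marks levels below the detection floor. Gpr84 reaches 7.12 and 7.30 in LPS macrophages, and the points of Gpr34 in that group lie in the grey zone.

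Proton-sensing receptors report extracellular acid, and Gpr65 and Gpr132 fell with LPS and in colony cells. Gpr65, the more strongly leukocyte-associated, stood at 3.94 and 4.08 in LPS macrophages, 4.54 and 4.63 in IL-4 macrophages, -1.78 and -1.65 in colony cells and 4.85 and 4.78 in control macrophages. Its level was thus high in all macrophages and far lower in colony cells, where it fell by 6.53 ± 0.09 (92.1-fold, adjusted p = 4.56e-07), while it fell by 0.80 ± 0.09 with LPS.

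Gpr132, a receptor that also answers to oxidised lipids and lactate, fell by 1.10 ± 0.07 with LPS and by 4.45 ± 0.07 in colony cells. It stood at 1.17 and 1.12 in LPS macrophages, -2.17 and -2.26 in colony cells and 2.24 on both control arrays. Gpr4, known from endothelium, was dim in every group and at least 1.56-fold higher with LPS and at least 1.23-fold higher with IL-4 than in control macrophages.

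Of the 11 chemoattractant, peptide and hormone receptors on the array, 6 were tested. Gpr77, the second receptor for the complement fragment C5a, was at -0.05 and -0.19 in LPS macrophages, 2.20 and 2.30 in IL-4 macrophages, 0.00 and 0.19 in colony cells and 2.21 and 2.10 in control macrophages. It fell by 2.28 ± 0.10 with LPS and by 2.06 ± 0.10 in colony cells, and a second probe, which overlaps the first, gave -2.36 and -2.07. The IL-4 and control arrays overlapped (difference 0.09 ± 0.10, adjusted p = 0.593). Gpr44, a prostaglandin D2 receptor of T cells and granulocytes, was at -4.50 and -3.47 in LPS macrophages, at least 4.12-fold above control macrophages, a call lost with normexp (log2 difference 0.28).

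Among 7 orphan receptors known from leukocytes, 5 were tested and 4 fell with LPS, where 25.8% of all genes were called lower. Gpr82, among those that fell, passed the filter only through the control arrays. Gpr160 stood at -2.05 and -2.01 in LPS macrophages, 0.47 and 0.49 in IL-4 macrophages, -2.63 and -2.49 in colony cells and 1.05 and 1.00 in control macrophages. It fell by 3.05 ± 0.07, 0.55 ± 0.07 and 3.58 ± 0.07 in those 3 groups. Gpr171 fell by 2.78 ± 0.12 with LPS, 0.72 ± 0.12 with IL-4 and 1.25 ± 0.12 in colony cells. Gpr146, which in mouse liver bears on cholesterol secretion, fell by 1.98 ± 0.09 with LPS and 2.07 ± 0.09 in colony cells. Gpr141 was the exception, with a rise of 1.37 ± 0.09 with LPS; in colony cells it fell by 1.05 ± 0.09, and all 5 were called lower there, where 46.7% of all genes were.

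Of 20 orphan receptors known mainly from the brain 11 were tested, and with LPS 3 were called higher and 3 lower, where 28.9% and 25.8% of all genes were. Among those higher, Gpr52 passed the filter only through the LPS arrays. Gpr85, a conserved neural orphan, was at 2.27 on both LPS arrays, -0.86 and -0.66 in IL-4 macrophages, -1.09 in both colony samples and -1.53 and -1.83 in control macrophages. It rose by 3.95 ± 0.12 with LPS (15.5-fold, adjusted p = 7.92e-06), 0.93 ± 0.12 with IL-4 and 0.59 ± 0.12 in colony cells. Gpr45 stood at -0.19 and -0.25 in LPS macrophages and -2.91 and -3.00 in control macrophages, a rise of 2.74 ± 0.10. Gpr52, a striatal receptor, was above background in LPS macrophages only, at -4.17 and -3.57, at least 4.46-fold above control macrophages; normexp (log2 difference 0.30) ended that call, as did leaving out LPS replicate 2 (2.41), control replicate 1 (2.80) or control replicate 2 (2.62).

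Gpr162, an orphan receptor, stood at 5.16 and 5.15 in control macrophages. The other groups were all lower, at 2.40 and 2.51 in LPS macrophages, 2.39 and 2.44 in IL-4 macrophages and -3.14 and -3.16 in colony cells. It fell by 2.70 ± 0.07 with LPS and fell by 2.74 ± 0.07 with IL-4, and in colony cells it fell by 8.30 ± 0.07 (315-fold, adjusted p = 4.51e-07). Gpr176, a receptor of the brain's circadian clock, was at -3.11 and -2.81 in LPS macrophages, 0.48 and 0.53 in IL-4 macrophages, 0.67 and 0.64 in colony cells and 0.27 and 0.28 in control macrophages, so that the LPS arrays alone were low; it fell by 3.24 ± 0.11 with LPS. Gpr19 fell by 1.42 ± 0.07 with LPS and rose by 1.11 ± 0.07 in colony cells.

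Of 16 adhesion receptors 11 were tested. In colony cells 6 were called higher and 3 lower, with LPS 2 higher and 4 lower, and with IL-4 2 lower. Over all genes 24.7% were called higher and 46.7% lower in colony cells, and 54.7% were called with LPS and 19% with IL-4, so the LPS and IL-4 counts lie near the share of all genes. The adhesion receptors' median difference in colony cells was 1.25, with or without bounds, and that of all genes -0.35. Gpr64 and Gpr133, called higher, passed the filter only through the colony arrays, and Gpr110, called lower, only through the control arrays. Their calls in colony cells are therefore not independent of the filter. Gpr64, known from the epididymis, was at -0.11 and -0.21 in colony cells and below background on the 6 macrophage arrays, at least 58.5-fold lower in control macrophages. Gpr124, which acts in blood vessel growth in the brain, was at 2.38 and 2.66 in colony cells and -3.26 and -3.72 in control macrophages, a difference of 6.01 ± 0.31 (64.5-fold). Gpr133 was at 0.19 and 0.16 in colony cells, with -4.34 and -7.95 in control macrophages, of which 1 array was above background. The difference was 6.32 ± 1.10, or 8.12 without control replicate 1 and 4.52 without control replicate 2.

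Gpr56, found on natural killer cells, neural progenitors and other cells, stood at -0.69 and -0.78 in colony cells, -5.92 and -5.41 in LPS macrophages, -4.65 and -4.69 in IL-4 macrophages and -4.81 and -4.07 in control macrophages. The colony arrays were above all others, by 3.71 ± 0.28 over control macrophages (adjusted p = 8.80e-05). Gpr97, the next protein-coding gene to Gpr56 on chromosome 8, differed by 1.25 ± 0.52 in colony cells, which was not called (adjusted p = 0.0731). Gpr125, a relative of Gpr124, rose by 3.64 ± 0.09 in colony cells, and its second probe gave 3.50. It is counted as lower with LPS and IL-4, each called by 1 of its 2 probes. The probes' differences spanned -0.76 to 0.16 with LPS and -0.50 to -0.14 with IL-4. Gpr126, known from Schwann cell myelination, stood at 0.25 and 0.45 in LPS macrophages, against -1.25 and -1.30 in control macrophages, and rose by 1.63 ± 0.10 with LPS. Gpr98, a very large receptor of hair cells and retina, was dim in all groups; its LPS rise of 1.14 ± 0.32 lost its call with normexp (0.04) and on leaving out either LPS array (1.20 and 1.08), either colony array (1.14) or control replicate 2 (0.82).

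Outside the adhesion class, colony cells had more of Gpr39 and Gpr153 as well. Both passed the filter only through the colony arrays, so their calls there are not independent of the filter. Gpr39, a zinc-sensing receptor, was at -0.09 and -0.29 in colony cells and below background on all 6 macrophage arrays, at least 57.2-fold lower in control macrophages. Gpr153, an orphan receptor, was at -2.59 and -2.49 in colony cells, at least 11.2-fold above control macrophages. Gpr39, Gpr64 and Gpr153 were above background in colony cells only, as Gpr52 and Gpr55 were in LPS macrophages. Gpr161, a ciliary receptor of Hedgehog signalling, rose by 1.41 ± 0.19, a call lost with normexp (0.28).

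**Figure D5:**
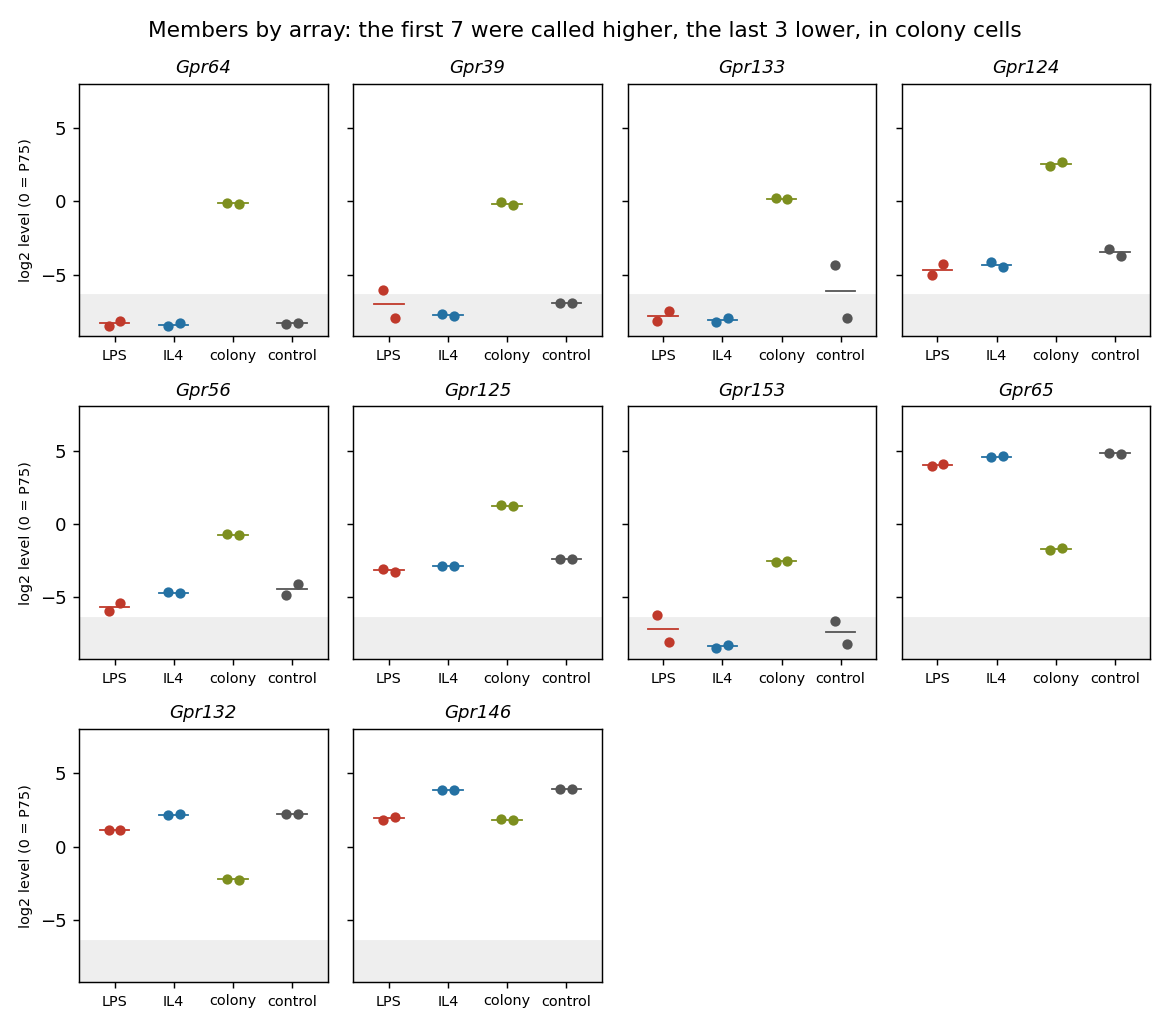
Log2 level (0 = P75) of 10 members on each array; points are the 2 arrays of a group, bars their mean, and grey marks levels below the detection floor. Gpr64 and Gpr39 lie near 0 in colony cells and mostly in the grey zone elsewhere, and Gpr65 and Gpr132 are lowest in colony cells.

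Multi-pass proteins that carry the name but work in the Golgi, the endosome or lysosome, or as transporters all passed the filter, 10 of 10 on the array. In colony cells 9 of the 10 were called lower and none higher, with a median difference of -1.05, where 46.7% of all genes were called lower and 24.7% higher and their median was -0.35. With LPS 3 were called higher and 4 lower, where 28.9% and 25.8% of all genes were. Gpr137b, a lysosomal membrane protein, was at 3.25 and 3.32 in LPS macrophages, 4.36 and 4.37 in IL-4 macrophages, 2.21 and 2.23 in colony cells and 4.70 and 4.69 in control macrophages. It fell by 1.41 ± 0.06 with LPS, 0.33 ± 0.06 with IL-4 and 2.48 ± 0.06 in colony cells. Only 1 of its 4 probes called the IL-4 fall, with differences of -0.33 to -0.06 over the 4. The IL-4 call was lost on leaving out any 1 array of the IL-4, colony or control group. Its probes also match transcripts of Gpr137b-ps, which fell by 1.51 ± 0.07 with LPS and 1.86 ± 0.07 in colony cells, so the 2 names cannot be told apart. Gpr155, a cholesterol sensor of the lysosome, was at -3.32 and -3.02 in LPS macrophages, -0.62 and -0.60 in IL-4 macrophages, -3.51 and -3.41 in colony cells and -0.67 and -0.63 in control macrophages, and fell by 2.52 ± 0.11 and 2.81 ± 0.11 in LPS macrophages and colony cells. Gpr108, a Golgi protein, fell by 1.35 ± 0.07 in colony cells (adjusted p = 2.03e-05), and its LPS difference of 0.08 ± 0.07 was not called. Gpr172b, a riboflavin transporter, rose by 1.08 ± 0.08 with LPS.

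Of 4 constitutively active Gs-coupled receptors tested, 1 was called with LPS and 2 in colony cells, where 54.7% and 71.4% of all genes were. Gpr3, which raises cyclic AMP without a ligand, stood at 0.71 and 0.55 in colony cells and 2.37 and 2.47 in control macrophages, and fell by 1.79 ± 0.08. Gpr157 is not of this class and was listed as a ciliary receptor. It stood at 4.32 and 4.61 in LPS macrophages, 4.02 and 4.17 in IL-4 macrophages, 3.69 and 3.15 in colony cells and 4.16 and 4.24 in control macrophages. In colony cells it fell by 0.77 ± 0.20 (limma adjusted p = 0.0154).

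With IL-4 the changes were few and mostly downward: 5 of the 11 members called lower had a fitted fall of at least 2-fold, where 2.22% of all genes did, and none of the 3 called higher rose that much, where 2.17% of all genes did. The 5 were Gpr162, Gpr98, Gpr34, Gpr82 and Gpr84. Gpr98 was below background with IL-4, where its bound is at least 1.95-fold lower, which leaves 4. Of these 4, Gpr82 passed the filter only through the control arrays, so its call is not independent of the filter. The count of 14 was 8 with each array centred on its median, where the share of all genes called fell from 19% to 9.79%. Leaving out either IL-4 array also lowered both the count and that share.

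Set directly against IL-4 macrophages, LPS macrophages had 40 members called, 20 higher and 20 lower, where 52.6% of all genes were called (26.8% higher, 25.8% lower). At least 2-fold higher were 14 members and at least 2-fold lower 14, where 11.9% and 9.64% of all genes were, by fitted difference (13 and 13 by bounds). Gpr34 was at least 49.6-fold lower in LPS macrophages, Gpr183 differed by -3.57 ± 0.23 and Gpr18 by 5.67 ± 0.11. In colony cells against IL-4 macrophages 52 members were called, 17 higher and 35 lower, where 71.7% of all genes were called (24.3% higher, 47.3% lower). At least 2-fold higher were 13 members and at least 2-fold lower 22, where 16% and 22.2% of all genes were (13 and 20 by bounds). Gpr162 differed by -5.56 ± 0.07 there, Gpr65 by -6.30 ± 0.09 and Gpr132 by -4.41 ± 0.07, while Gpr125 differed by 4.14 ± 0.09 and Gpr133 was at least 77.0-fold higher.

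The proteins that receptors signal through were read on the same arrays. Of 20 tested G protein subunits, 6 rose and 6 fell with LPS, 5 rose and 3 fell with IL-4, and 2 rose and 14 fell in colony cells. Over all genes 28.9% were called higher and 25.8% lower with LPS, 9.86% and 9.17% with IL-4, and 24.7% and 46.7% in colony cells, so the LPS counts lie near the share of all genes. Gnai1, an inhibitory alpha subunit, was at 0.23 and 0.30 in colony cells and below background on all macrophage arrays, at least 78.5-fold lower in control macrophages. It passed the filter only through the colony arrays, so its call there is not independent of the filter. Gngt2, a gamma subunit of leukocytes, stood at 0.75 and 0.85 in colony cells and 6.01 and 5.79 in control macrophages. Gng12 rose by 1.74 ± 0.07 and Gnb5 fell by 1.63 ± 0.08 with LPS.

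Among 12 regulators of G protein signalling, which speed the return of G proteins to rest, 4 rose and 4 fell with LPS, 2 rose and 2 fell with IL-4, and 4 rose and 8 fell in colony cells, to be read against the same shares of all genes. Rgs2 stood at 3.35 and 3.43 in LPS macrophages, 5.76 and 5.75 in IL-4 macrophages, 1.33 and 1.28 in colony cells and 6.08 and 6.02 in control macrophages, and it fell by 2.65 ± 0.07 with LPS. Rgs16 rose by 1.72 ± 0.19 with LPS and 1.05 ± 0.19 with IL-4. Rgs17 was at -0.04 and 0.05 in colony cells, at least 65.4-fold above control macrophages. It passed the filter only through the colony arrays, so that call is not independent of the filter. Of 7 receptor kinases and arrestins, which switch receptors off, 1 rose and 4 fell with LPS, 1 rose and 2 fell with IL-4, and 2 rose and 5 fell in colony cells. These counts too are to be read against those shares. Adrbk2, a receptor kinase, stood at -5.58 and -5.56 in colony cells and 0.50 and 0.53 in control macrophages.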

How the data were processed

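Per the file headers, spots were read by Agilent Feature Extraction 10.7.3.1 and the deposited signal is an intensity, background-subtracted and not scaled between arrays. Other columns, per the file headers, hold 0 or 1 flags for spots well above background, uneven, outlying or saturated. A deposited log2 table of the authors (34119 probes, column medians 2.53 to 2.96) matched the scanner signal minus 1 constant per array (r at least 0.99996 across probes); what the constant is, is not given. Partek 6.4 and RMA appear, without a role, in the submitters' processing notes. All arrays shared 1 slide and 1 scan.

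Uneven and outlying spots were left out, log2 signals had the array's 75th percentile subtracted, and a gene took its brightest passing probe. limma 3.58.1 (R 4.3.3) fitted 4 group means over 8 arrays (4 residual and 1.57 prior degrees of freedom), with Benjamini-Hochberg adjustment over 26528 genes; 37 of these had no value on some array and were fitted on the rest. The fit was tested on simulated data. With 2 arrays a group the smallest two-sided p of an exact permutation test is 0.333, so calls rest on the spread shared across arrays and genes. The number of arrays limits the precision. Where all probes of a gene were dim in 1 group, a fold is a lower bound against the lowest signal well above background. Among 7 genes with several probes, no gene had probes called in opposite directions in any of the 5 comparisons. All probes had the same call in 27 of the 35 pairs of gene and comparison.

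Probe positions are on mm9 and promoter windows, from RefSeq, on GRCm38.p6; no annotation of mm9 was used, so a probe's exon or untranslated region is not stated. The genes, roles and lists were chosen with earlier results of these data known. Named by rule were members called and changed at least 2-fold (up to 15 each way, well above background on both arrays of the higher group), a panel of leukocyte receptors (Gpr109a, in the panel, has no probe of that name), up to 3 called genes of each partner list and the 5 brightest members per group, of which no order is given; Gpr4, Gpr119, Gpr97, Gpr61, Gpr135 and Cyp7b1, and small changes of named members, were added after their values were seen. A few members are not reported here by name; they stay in the fit and in counts over all members, and are left out of counts by role and of plots.

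Alternatives were other background corrections, scalings, filters, probe rules and spread estimates, the deposited table, the replicate number as a block, and each array left out.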

Additional observations from a re-analysis of the deposited data

How the results depend on the processing

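The IL-4 against control count of 14 was 7 in the deposited table, which holds 52 of the 66 members, and 8 with each array centred on its median; leaving out 1 array gave 6 to 16. The other 4 counts stayed within 1.5 times under every alternative, leaving out 1 array among them. The share of all genes called moved as well. For LPS against control it was 54.7% in the main fit, 46.6% with median centring and 49.1% in the deposited table. Leaving out 1 array moved Gpr56 in IL-4 against control, which was not called, to between -0.60 and 0.14. The cause was not tested. Normexp adds an offset of 50 to each signal, which by construction shrinks the differences of dim members, as for Gpr133 in colony cells against control (3.11, against 6.32). Relative to the 75th percentile, the all-gene median difference of LPS against control was 0.07; it was -0.15 with normexp, -0.11 with median centring and -0.13 in the deposited table. Replicate numbers gave no sign of pairing the samples: same-numbered samples of 2 groups correlated at -0.16 to 0.05 in their deviations. With 2 samples a group this cannot exclude pairing. With the replicate number as a block the counts against control were 43 for LPS (51.7% of all genes), 14 for IL-4 (14.6%) and 51 for colony cells (70%). They were 48 for colony cells against IL-4 (69.9%) and 38 for LPS against IL-4 (49.6%). Dim signal over background limits Gpr52, Gpr55, Gpr98 and Gpr119.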
